A study of Mus musculus with 20 samples.

Results

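Granule cells are the principal neurons of the dentate gyrus, the hippocampal subfield that receives cortical input through the perforant path and passes it to CA3 through the mossy fibres. They are among the few neurons that are still born in the adult brain, and a core set of genes sets them apart from the pyramidal neurons of CA1, CA2 and CA3. The 8 dentate granule cell genes described here are Prox1, Dsp, C1ql2, Trpc6, Stxbp6, Pdzd2, Calb1 and Igfbp5, each found under its symbol as 1 of the 25190 genes counted in the mouse hippocampus. They form a list of genes that mark this cell type and were found by symbol, with no measured value in the rule.

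RNA was sequenced from 20 wild-type male mice of the strain C57BL/6JOlaHsd, labelled as 4 months old, with 5 mice in each of 4 groups. All carried bilateral cannulas aimed at CA1 of the dorsal hippocampus. The Vehicle group was infused with artificial cerebrospinal fluid and the Control group with small RNAs (sRNAs) pooled from post-mortem hippocampi of unaffected people. For the groups Pool 1 and Pool 2 the infused sRNAs came from separate cohorts of patients with schizophrenia, and the hippocampi were taken 24 hours after behavioural testing had ended. Control, Pool 1 and Pool 2 each stand for 1 pool of RNA, so that in the comparison of either patient pool with Control a difference between pools and one between diagnoses cannot be told apart. The sample labels give hippocampal tissue, whereas the series description names CA1. The granule cell genes were present in all 20 libraries, together with markers of CA1, CA2 and CA3, so the tissue was not CA1 alone.

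Libraries held between 20588280 and 25543939 counts, and levels are given as CPM, that is, as a share of the TMM-scaled library total. At this depth a count of 3 corresponds to at most 0.146 CPM, and the lowest value of any of the 8 genes was 14.8 CPM, so counting error is small beside the spread between mice. Pool 2 replicate 1 stood apart from the other libraries of its group by its glial markers, with a summed level of 6 microglial markers of 816 CPM, whereas the medians of the 4 groups were between 362 and 423 CPM. Vehicle replicate 4 held choroid plexus RNA, with 8911 CPM summed over 5 markers, where the median of the Vehicle mice was 782 CPM.

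The genes lie at separate places in the genome (GRCm38). Prox1, a homeobox transcription factor that sets and maintains granule cell identity, spans chr1:190118035-190170714 on the minus strand. Dsp, which encodes the desmosomal plaque protein desmoplakin, spans chr13:38151294-38198577, and C1ql2, a secreted C1q-like protein of mossy fibre synapses, spans chr1:120340582-120343174, both on the plus strand. Trpc6, a diacylglycerol-activated cation channel, spans chr9:8544142-8680741 on the plus strand, and Stxbp6, a SNARE-binding protein also called amisyn, spans chr12:44852484-45074709 on the minus strand. Pdzd2, a protein with several PDZ domains, spans chr15:12359711-12739924 on the minus strand. Calb1, the calcium buffer calbindin, spans chr4:15881264-15908064 on the plus strand, and Igfbp5, a secreted binding protein of insulin-like growth factors, spans chr1:72857932-72874884 on the minus strand. Annotated antisense genes overlap Prox1, Dsp, Trpc6, Stxbp6 and Pdzd2. The libraries were stranded, but which strand setting was counted is not given in the sources used here.

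Promoters are shown for Prox1 and Dsp, the pair of the 8 genes most alike across mice. Those of C1ql2 and Igfbp5, the genes with the largest differences between Pool 2 and Pool 1, are also shown. Any part of the promoters in the joint movement of the 8 genes was not tested. The sequences are from RefSeq (GRCm38.p6) and run from 250 bases before to 50 bases after the annotated start. Capitals mark the E-box, CANNTG, the same on both strands, which basic helix-loop-helix factors such as the granule cell factor Neurod1 are known to bind.
Prox1 (chr1:190170778-190171077, minus strand): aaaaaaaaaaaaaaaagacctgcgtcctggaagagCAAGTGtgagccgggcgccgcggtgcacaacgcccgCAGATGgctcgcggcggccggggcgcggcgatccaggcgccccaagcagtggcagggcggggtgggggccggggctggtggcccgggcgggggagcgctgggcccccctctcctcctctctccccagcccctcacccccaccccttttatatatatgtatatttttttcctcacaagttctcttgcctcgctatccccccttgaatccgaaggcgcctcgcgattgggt
Dsp (chr13:38151044-38151343, plus strand): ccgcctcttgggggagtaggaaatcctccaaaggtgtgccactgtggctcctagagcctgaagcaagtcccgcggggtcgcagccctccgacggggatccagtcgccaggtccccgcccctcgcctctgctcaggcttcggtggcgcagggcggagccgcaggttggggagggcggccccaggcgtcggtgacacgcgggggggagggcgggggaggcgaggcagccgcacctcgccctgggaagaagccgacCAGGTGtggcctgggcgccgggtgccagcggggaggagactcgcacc
C1ql2 (chr1:120340332-120340631, plus strand): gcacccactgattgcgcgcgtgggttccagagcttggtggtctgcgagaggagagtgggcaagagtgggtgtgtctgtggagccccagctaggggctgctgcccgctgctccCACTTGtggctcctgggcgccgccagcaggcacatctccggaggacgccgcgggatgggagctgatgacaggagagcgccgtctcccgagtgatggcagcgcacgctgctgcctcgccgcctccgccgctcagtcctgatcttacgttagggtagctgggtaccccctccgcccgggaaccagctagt
Igfbp5 (chr1:72874816-72875115, minus strand): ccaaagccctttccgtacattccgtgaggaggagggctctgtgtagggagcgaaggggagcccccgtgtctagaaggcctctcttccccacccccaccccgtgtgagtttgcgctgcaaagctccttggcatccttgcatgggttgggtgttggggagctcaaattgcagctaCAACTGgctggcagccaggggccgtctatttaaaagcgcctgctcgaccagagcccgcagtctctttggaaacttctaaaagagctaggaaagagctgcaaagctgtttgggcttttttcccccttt

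Of the 8 genes, 7 had a promoter in the table, with 2 entries for Prox1, of which the first is shown. At least 1 E-box was found in an entry of 5 of these 7 genes, and in 72.3% of all 32851 promoters of this length. The second Prox1 entry held no E-box. The E-box form CAGATG, searched for on both strands, was found in Prox1 only, at position -179 from the start, and it is present in 17.2% of all promoters. The GC box GGGCGG, also searched for on both strands, was found in 4 of the 7 genes, against 35.7% of all promoters. The member promoters had 56.3% to 73.0% G and C, whereas the median of all promoters was 52.7%. The matches describe letters in these windows and were not tested as binding sites.

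Levels of the 8 genes were compared with each other only per kilobase of exon, as CPM per kb over all 20 libraries (mean ± SD). C1ql2 (46.6 ± 18.3) and Igfbp5 (38.2 ± 9.27) had the highest levels, and C1ql2 was above Igfbp5 in 14 of 20 libraries. Stxbp6 (22.6 ± 7.76) and Calb1 (22.5 ± 5.08) could not be ordered, since each was above the other in 10 of 20 libraries. Prox1 followed at 13.8 ± 5.46 and was below Calb1 in all 20 libraries. Dsp (6.48 ± 3.17) was above Trpc6 (5.16 ± 1.72) in 15 of 20 libraries, and Pdzd2, at 2.74 ± 1.01, was the lowest of the 8 in each library, where it lay below Trpc6 in 20 of 20. The order of the neighbours C1ql2 and Igfbp5, Stxbp6 and Calb1, and Dsp and Trpc6 therefore changed between libraries, and their differences were not tested.

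The main feature of the granule cell genes was a wide spread between mice of the same group. Prox1 had 45.3 CPM in Pool 1 replicate 5 and 209 CPM in Pool 1 replicate 1, a 4.62-fold range within 1 group. By library in the order of the replicates, the level of Prox1 in CPM was 138, 109.7, 106, 83.5 and 105 in Vehicle mice and 54.9, 80.6, 95.3, 195 and 184 in Control mice. It was 209, 91.5, 73.6, 96.9 and 45.3 CPM (Pool 1) and 107, 186, 115, 128 and 113 CPM (Pool 2). Control replicates 4 and 5, Pool 1 replicate 1 and Pool 2 replicate 2 were high, Control replicate 1 and Pool 1 replicate 5 were low, and all 4 groups overlapped. The group means were 108 ± 19.3 (Vehicle), 122 ± 63.7 (Control), 103 ± 62.5 (Pool 1) and 129.8 ± 32.5 CPM (Pool 2, SD, n = 5 each).

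The same libraries stood out for Dsp. Its level in CPM was 78.1, 47.5, 56.6, 44.1 and 60.8 in Vehicle mice and 30.6, 45.0, 49.5, 119.7 and 70.5 in Control mice. It was 146, 48.5, 43.3, 45.2 and 25.7 CPM (Pool 1) and 49.3, 115, 51.7, 61.5 and 63.4 CPM (Pool 2). Pool 1 replicate 1 and Pool 1 replicate 5 were again the highest and the lowest of the 20 libraries, 5.68-fold apart, and Control replicate 4 and Pool 2 replicate 2 were the only other libraries above 100 CPM.

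**Figure D1:**
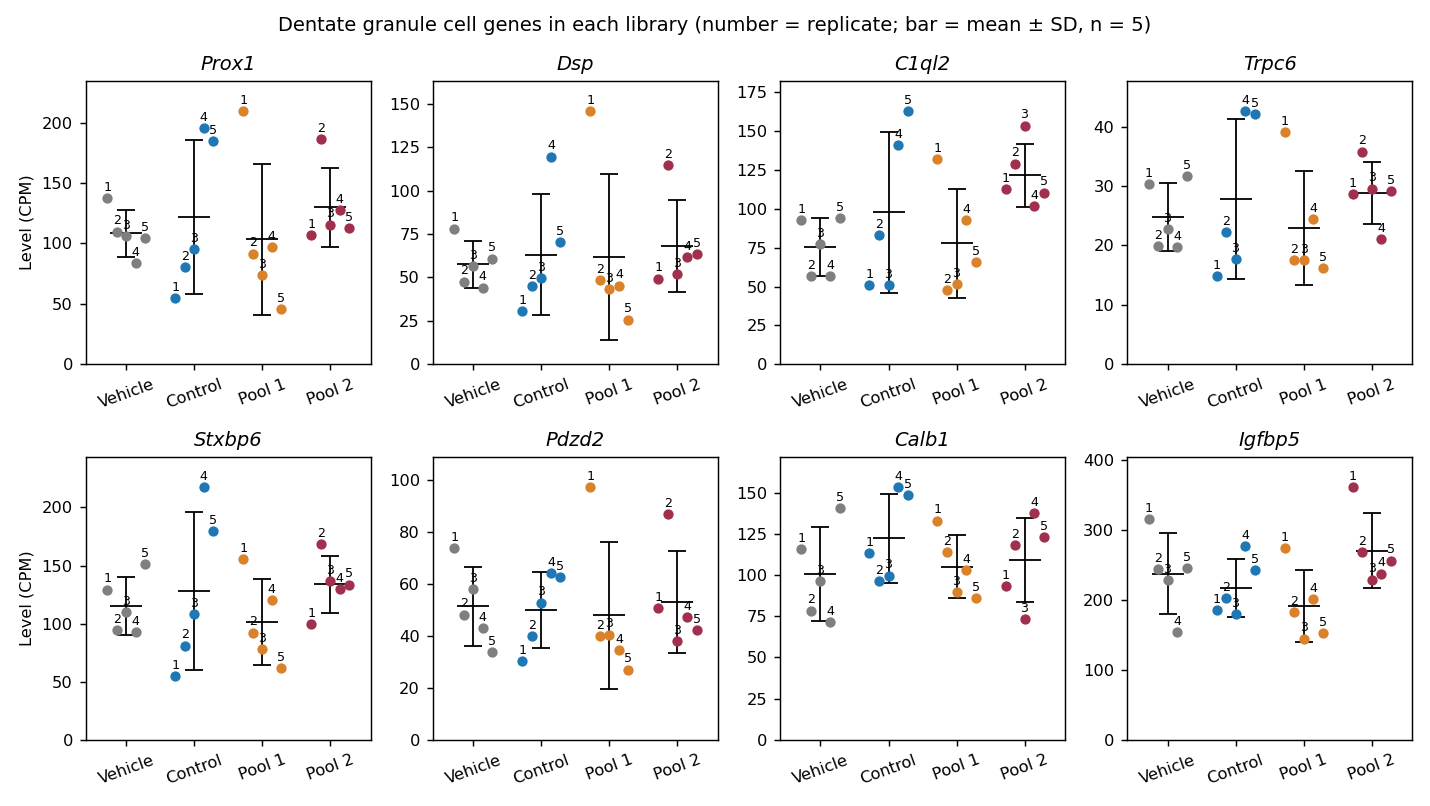
Level of each dentate granule cell gene (vertical axis, CPM) in the 20 libraries by group, where each point is 1 library with its replicate number and the horizontal bar with whiskers is the mean ± SD (n = 5). The groups overlap for all 8 genes, and Control replicate 4, Pool 1 replicate 1 and Pool 2 replicate 2 lie at the top of their groups for most of them.

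Trpc6, Stxbp6, Pdzd2 and Calb1 had narrower ranges over the 20 libraries than Prox1 and Dsp. Trpc6 had 19.7 to 31.7 CPM (median 22.7) in Vehicle mice, 14.8 to 42.6 CPM (median 22.2) in Control mice, 16.2 to 39.1 CPM (median 17.5) in Pool 1 mice and 21.0 to 35.8 CPM (median 29.2) in Pool 2 mice. Stxbp6 had 92.4 to 151 CPM (median 110.1), 54.8 to 218 CPM (median 108), 61.5 to 155 CPM (median 92.2) and 99.5 to 169 CPM (median 134) in the same order of groups. For both, Control replicate 4 was the highest and Control replicate 1 the lowest of all libraries, so that the Control group alone spanned the whole range of the data. Pdzd2 had 33.8 to 73.6 CPM (median 48.1), 30.2 to 64.1 CPM (median 52.7), 27.0 to 97.1 CPM (median 39.8) and 37.8 to 86.9 CPM (median 47.1), with its lowest and highest values both in Pool 1. Calb1, which some pyramidal neurons of CA1 and some interneurons also express, had the narrowest range over 20 libraries, 2.14-fold. It had 71.5 to 141 CPM (median 96.4), 96.5 to 153 CPM (median 113), 85.9 to 133 CPM (median 103) and 73.3 to 138 CPM (median 118).

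Measured on log2 CPM, the SD within groups was between 0.32 (Igfbp5) and 0.66 (Dsp), whereas the median over the 14797 genes with a mean of at least 1 CPM was 0.20. The SD of Dsp, Prox1, C1ql2, Stxbp6, Pdzd2 and Trpc6 was above that of 92.9% to 97.3% of these genes, and that of Calb1 and Igfbp5 was above 80.7% and 78.2%. Among genes whose mean level was within 2-fold of that of the member, the percentiles were 93.8 to 99.8. The group accounted for 3.64% (Pdzd2) to 30.1% (Igfbp5) of the variance of the 8 genes, beside a median of 15.4% over all genes of at least 1 CPM, and for at most 11.4% in 6 of the 8.

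The 8 genes rose and fell together from mouse to mouse. The mean log2 CPM of the 8 genes differed 2.74-fold between the highest library, Pool 1 replicate 1, and the lowest, Pool 1 replicate 5, on the back-transformed scale. The highest libraries were Pool 1 replicate 1 (1.61 times the median library), Control replicate 4 (1.61 times), Pool 2 replicate 2 (1.49 times) and Control replicate 5 (1.45 times). Control replicate 4 was among the 4 highest libraries for 8 of the 8 genes and Pool 1 replicate 1 for 7. At the other end, Pool 1 replicate 5 was among the 4 lowest libraries for 7 genes, and Control replicate 1 and Pool 1 replicate 3 for 6 each. The spread of this mean was wide in Control (SD 0.58) and Pool 1 (SD 0.55) and narrower in Vehicle (SD 0.29) and Pool 2 (SD 0.22), and its range in Pool 2 lay within those of Control and Pool 1. All 5 Pool 2 libraries were above the median library (1.03 to 1.49 times), and 4 of the 5 Pool 1 libraries were below it. The mean of the 8 genes had a Pearson r of 0.32 with the log2 library total over 20 libraries.

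The correlation of each gene with the mean of the other 7 was computed over the 20 libraries and is given as a description, since all values of a library share its depth and its scaling. Pearson r was 0.96 for Prox1, 0.93 for Trpc6, 0.92 for Dsp, 0.91 for Stxbp6, 0.78 for C1ql2, 0.75 for Pdzd2, 0.73 for Igfbp5 and 0.58 for Calb1. With the group means removed, r was between 0.64 (Calb1) and 0.95 (Prox1), so the joint movement was present among mice of the same group. Without the 2 libraries farthest from the median, r was between 0.64 and 0.95. Of the 28 pairs of genes, Prox1 and Dsp had the highest r (0.94) and Pdzd2 and Calb1 the lowest (0.39), and 24 pairs had an r above 0.5. In Pool 2 mice alone (n = 5), r was -0.02 for C1ql2, -0.12 for Igfbp5 and 0.17 for Calb1, and in Vehicle mice alone it was 0.26 for Pdzd2. Within Pool 2, replicate 1 had the highest level of Igfbp5 and replicate 3 the highest of C1ql2.

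Of the further granule cell genes that were not on the list of 8, 13 of 13 had a positive correlation with them. Their r with the mean of the 8 genes ranged from 0.66 (Ahcyl2) to 0.95 (Dock10), whereas the middle 50% of the 14789 other genes of at least 1 CPM lay between -0.29 and 0.31. Dock10, a guanine nucleotide exchange factor, Maml2, a coactivator of Notch signalling, Plk5, a brain-expressed polo-like kinase, and Sema5a, a semaphorin, had r of 0.95, 0.94, 0.90 and 0.89. Markers of immature granule cells also moved in the same direction, with r of 0.79 for Neurod1, 0.77 for Sox11, 0.77 for Calb2, 0.72 for Drd1, 0.67 for Dcx and 0.49 for Igfbpl1. Of the 3 genes of mature granule cells, Dsp and Calb1 are themselves among the 8 and Tdo2, which is also among the 13, had an r of 0.81. Neurod1 is likewise on the further and on the immature list.

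**Figure D2:**
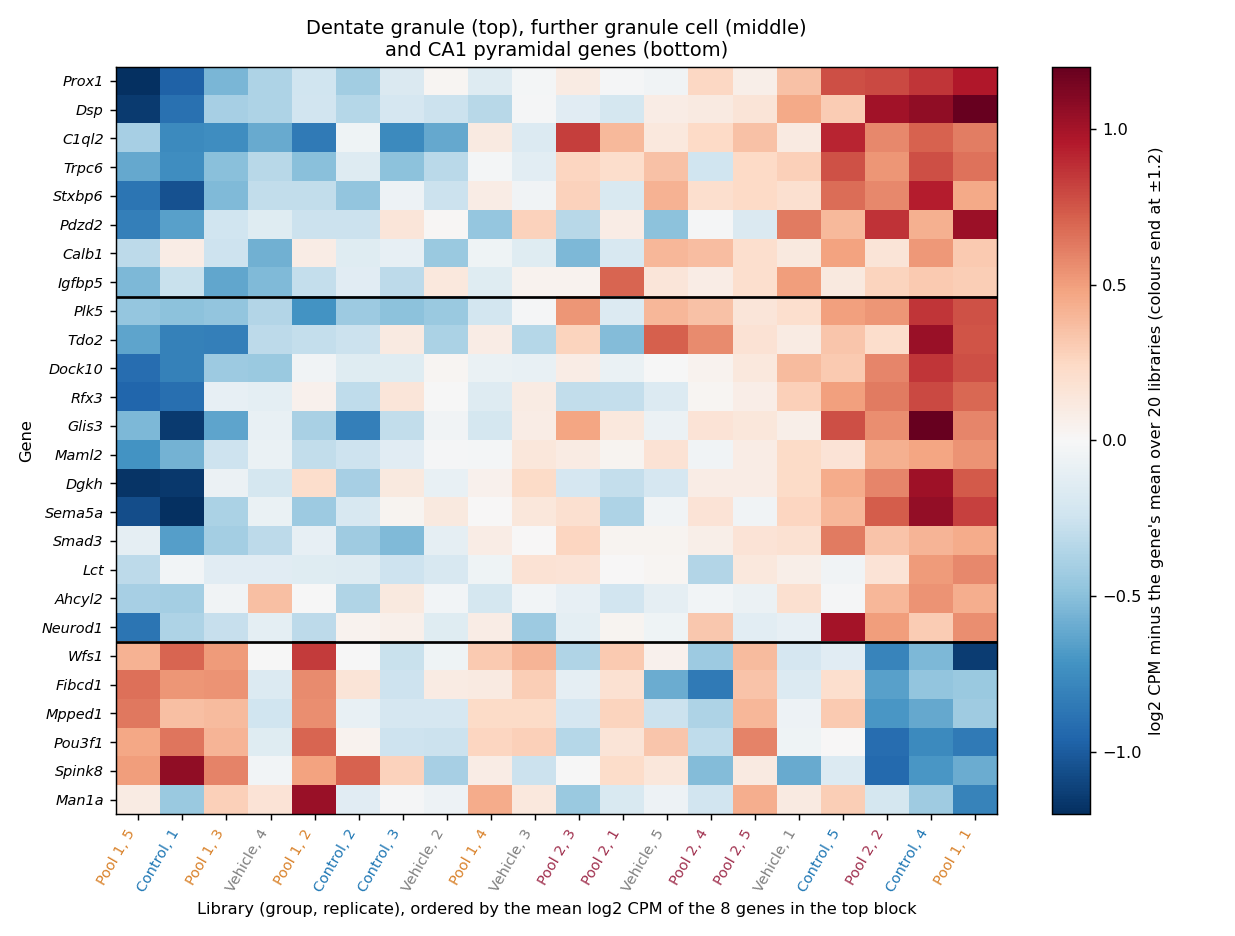
Log2 CPM of the 8 dentate granule cell genes (top block), 12 of the 13 further granule cell genes (middle) and 6 CA1 pyramidal markers (bottom), each centred on its mean over 20 libraries, with the libraries ordered from left to right by the mean of the 8 genes. Red marks high and blue low levels, and the libraries at the right are red in the upper blocks and mostly blue in the bottom block. Control and Pool 1 have libraries at both ends, whereas the 5 Pool 2 libraries all lie in the right part.

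The genes whose level was most like the mean of the 8 genes were, in order of r over 20 libraries, Tiam1 (0.96), Plekha2 (0.96), Npnt (0.96), Dock10 (0.95), Lingo2 (0.95), Foxo1 (0.95), Isoc1 (0.95), Ablim3 (0.94), Rreb1 (0.94) and Ipcef1 (0.94). Of these 10 genes, 7 were also among the 10 most alike by Spearman's rho, and 6 when the 2 libraries farthest from the median were left out. Those most like Prox1 alone were Dock10 (0.97), Tiam1 (0.95), Prtg (0.95), Dsp (0.94) and Lingo2 (0.94).

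Markers of CA1, CA2, interneurons, oligodendrocytes and choroid plexus mostly had the opposite sign. The 6 CA1 pyramidal markers all had a negative r with the mean of the 8 genes, from -0.80 (Spink8) to -0.34 (Man1a), and that of Wfs1 was -0.74. The mean of the CA1 markers had r of -0.73 with the mean of the granule cell genes, -0.71 with the group means removed and -0.65 without the 2 farthest libraries. All 4 CA2 markers were negative as well, with -0.83 for Rgs14. The 5 CA3 markers lay between -0.36 and -0.06, while the 3 mossy cell markers, from the hilus of the dentate gyrus, lay between 0.33 and 0.77, the highest being Calb2, which is shared with the immature list. The 7 interneuron markers ranged from -0.84 for Sst to 0.00 for Gad2, with 6 of 7 below 0, and their mean had an r of -0.78. The mean of the 3 oligodendrocyte markers had an r of -0.50, and all 5 choroid plexus markers were negative (-0.44 to -0.30). Other lists moved with the granule cell genes. All 6 thalamic and all 5 leptomeningeal markers had a positive r, with 0.44 and 0.30 for the list means (0.54 for both without the 2 farthest libraries), and the means of the neocortical and astrocyte markers had 0.45 and 0.37, with 4 of 5 genes positive in each. The means of the microglial and endothelial markers had 0.046 and 0.21. With the group means removed, r of the list mean was 0.32 for thalamus, 0.15 for leptomeninges, 0.46 for neocortex and 0.21 for astrocytes. It was -0.12 for microglia and 0.14 for endothelium. CPM are shares of a library, so the levels of all lists are tied to each other. In bulk tissue, fewer granule cells and less RNA per granule cell cannot be told apart, and the part of dissection in this pattern was not tested.

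The summed level of the 8 genes was 480 to 1185 CPM in Pool 1 mice and that of the 6 CA1 markers 493 to 1295 CPM. Pool 1 replicate 1 had the highest granule cell mean and the lowest CA1 mean of all libraries, and its difference between both (granule minus CA1, log2) was 1.00. Pool 1 replicate 5 had the most negative difference, -1.62, followed by Control replicate 1 at -1.54. Differences above 0.5 were found in Control replicate 4 (0.87), Pool 1 replicate 1 and Pool 2 replicate 2 (0.88), 1 mouse of each group that received sRNAs.

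**Figure D3:**
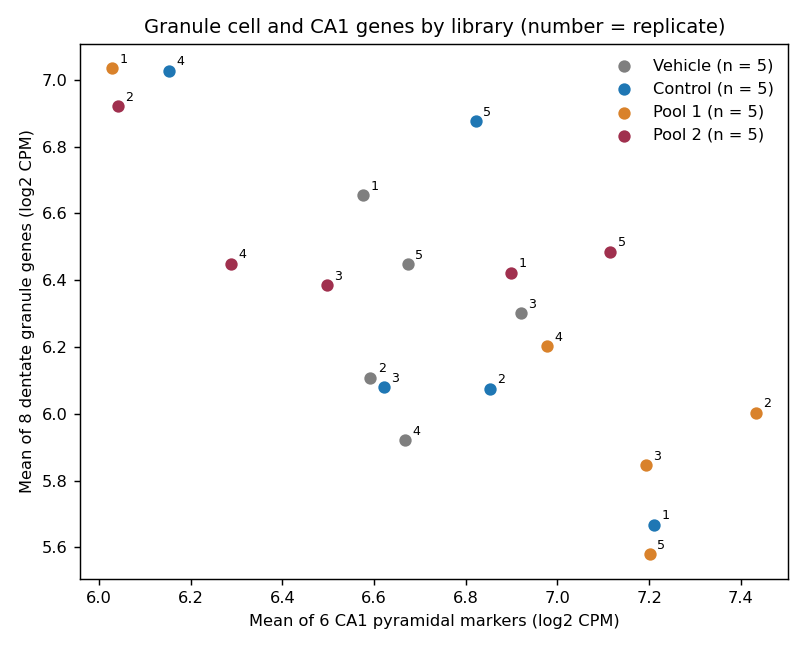
Mean log2 CPM of the 8 dentate granule cell genes (vertical axis) against that of 6 CA1 pyramidal markers (horizontal axis), with 1 point per library, coloured by group and numbered by replicate (5 libraries per group). Libraries with a high granule cell mean tended to have a low CA1 mean (r of -0.73 over 20 libraries). Among the exceptions were Control replicate 5 (granule cell mean 6.88, CA1 mean 6.82) and Pool 2 replicate 5 (6.48 and 7.12). Control, Pool 1 and Pool 2 each have a library at the upper left.

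**Figure D4:**
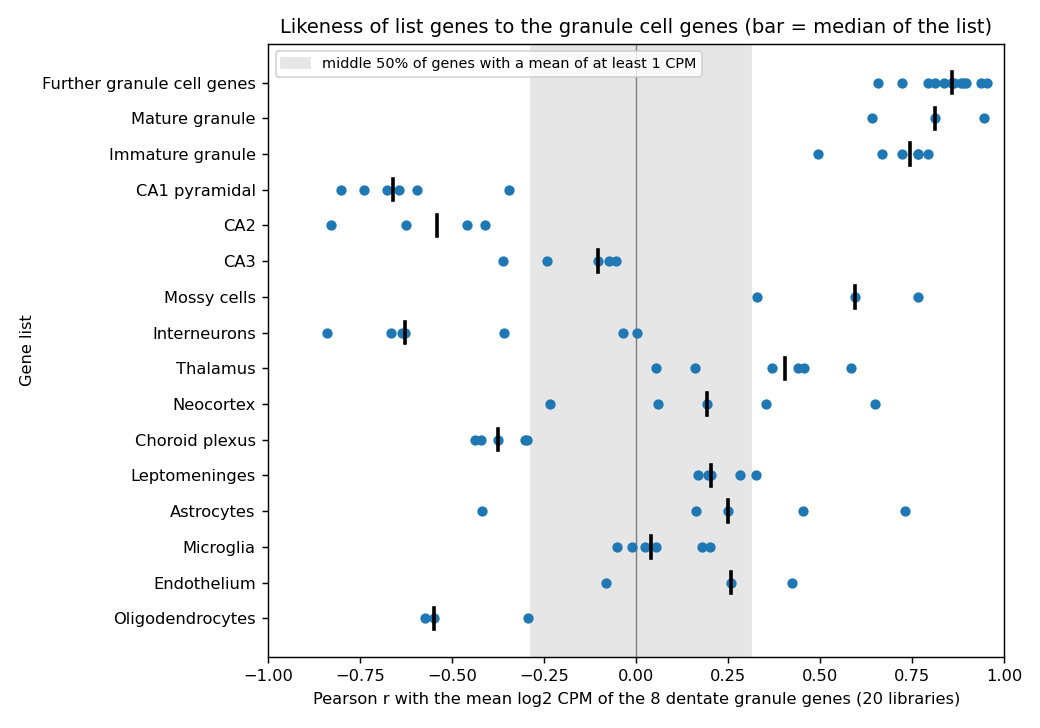
Pearson r of single genes with the mean log2 CPM of the 8 granule cell genes over 20 libraries (horizontal axis), by gene list (vertical axis). Points are genes, black bars the list medians and the grey band the middle 50% of genes of at least 1 CPM, and all 13 further granule cell genes lie to the right of the band (0.66 to 0.95) and the CA1 markers to its left (-0.80 to -0.34).

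The first comparison asked whether sRNAs from the first cohort of patients changed these genes relative to sRNAs from control individuals. No granule cell gene was changed in Pool 1 mice compared with Control mice, where changed means a log2 fold change of 0.3 or more in either direction together with p under 0.05 before adjustment. The count was 0 of 8, against 3.48% of all genes, and 1.99% of all genes were changed as lower in Pool 1. All 8 had lower fitted means in Pool 1 mice, with log2 fold changes from -0.34 (Stxbp6) to -0.03 (Dsp) and a median of -0.23, whereas the median over all genes was -0.01. Without Pool 1 replicate 1 this median was -0.55, and without Control replicate 4 it was -0.068. Prox1 had a log2 fold change of -0.24 (SE 0.37), which was -0.67 without Pool 1 replicate 1 and -0.0052 without Control replicate 4. Calb1 had -0.22 (SE 0.20), and -0.32 to -0.13 with single mice left out. The p-values of the 8 genes from edgeR's quasi-likelihood test were 0.28 or larger, the adjusted ones 0.945 or larger, and the 95% confidence intervals of the fold changes of the 8 genes lay between 0.488 and 1.83. Since the 8 genes share their movement between mice, their common sign is not 8 separate observations.

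In Pool 2 mice compared with Control mice, again 0 of 8 genes were changed, while 6.22% of all genes passed the threshold. The log2 fold changes lay between -0.16 (Calb1) and 0.32 (Igfbp5), 7 of 8 were positive and the median was 0.09, beside 0.00 over all genes. The direction of the median turned when single mice were left out, to -0.081 without Control replicate 1, -0.0058 without Control replicate 2 and -0.059 without Pool 2 replicate 2, where 2, 4 and 2 of 8 were positive. It was 0.15 without Pool 2 replicate 1 and 0.32 without Control replicate 4, the single omission that put a gene past the threshold (Igfbp5, with 7.22% of all genes). Igfbp5 had 271 ± 53.1 CPM in Pool 2 mice and 217 ± 41.3 CPM in Control mice (SD, n = 5), a log2 fold change of 0.32 (SE 0.19) with an adjusted p-value from edgeR of 0.734, and without Pool 2 replicate 1 the log2 fold change was 0.19. C1ql2 had a log2 fold change of 0.31 (SE 0.33, adjusted p from edgeR 0.892), which was 0.15 without Control replicate 1 and 0.58 without Control replicate 5. The comparison shares its Control mice with that of Pool 1.

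The comparison of Control with Vehicle mice asked for the effect of the infused RNA as such. It found 0 of 8 granule cell genes changed, and 5.10% of all genes passed the threshold. The log2 fold changes were between -0.13 (Igfbp5) and 0.37 (C1ql2), with 6 of 8 above 0 and a median of 0.16 (all genes, -0.01), which was 0.087 without Vehicle replicate 4 and turned to -0.088 without Control replicate 4 and -0.012 without Control replicate 5. The value of C1ql2 was 0.11 without Control replicate 5 and 0.54 without Control replicate 1. Calb1 had the smallest p-value of the 8 (0.169 by edgeR, adjusted 0.846), with 122 ± 27.0 CPM in Control and 101 ± 28.3 CPM in Vehicle mice. Without Vehicle replicate 5, which had the highest Calb1 level of its group, Calb1 was past the threshold (log2 fold change 0.43), as were 7.11% of all genes. Without Vehicle replicate 4, which had the lowest Calb1 level of all libraries, its log2 fold change was 0.18, and these were the extremes over all libraries left out in turn.

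**Figure D5:**
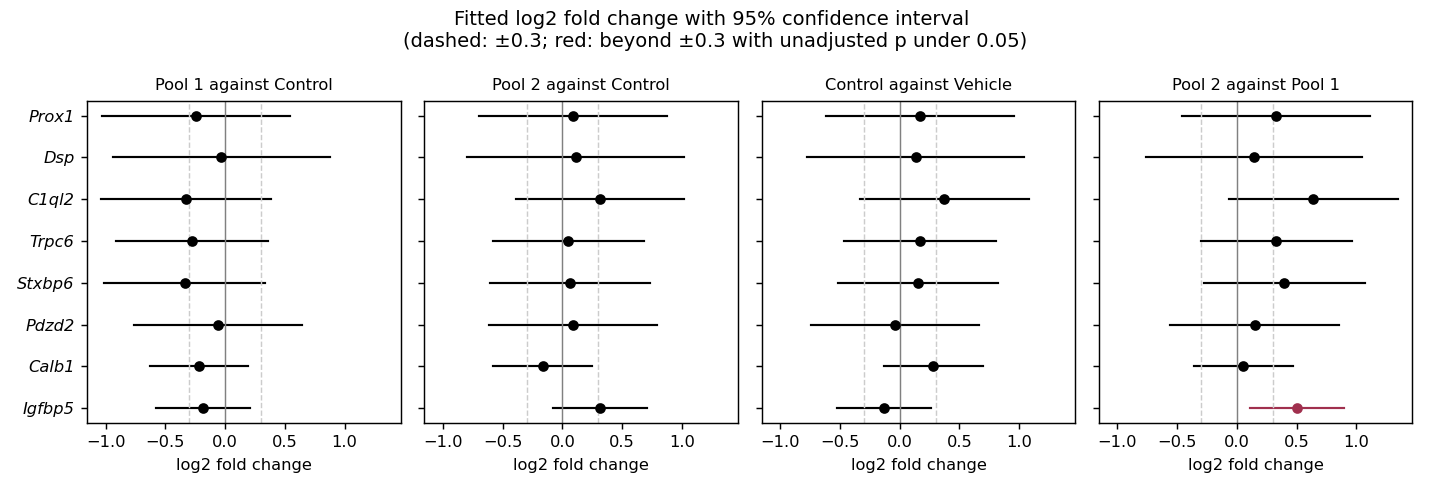
Log2 fold change of each granule cell gene (horizontal axis) with its 95% confidence interval (line) from edgeR, in 4 comparisons of 5 against 5 libraries. The dashed lines stand at 0.3 and -0.3, and Igfbp5 in Pool 2 against Pool 1 (red, 0.50) is the single value that lies beyond them with an unadjusted p under 0.05.

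The patient pools were also compared with each other, and here Igfbp5 was higher in Pool 2 mice. Its level in CPM was 361, 269, 229, 238 and 256 (Pool 2) and 274, 182, 145, 202 and 153 (Pool 1). In the other groups it was 185, 203, 179.5, 277 and 242 CPM (Control) and 316, 244, 229, 154 and 246 CPM (Vehicle). The groups overlapped, since Pool 1 replicate 1, at 274 CPM, was above 4 of the 5 Pool 2 libraries, while the other 4 Pool 1 libraries were below all of Pool 2. The log2 fold change was 0.50 (SE 0.19), a 1.42-fold difference with a 95% confidence interval of 1.08 to 1.86 and an unadjusted p-value of 0.0147, but the adjusted p-value from edgeR over 25190 genes was 0.427. An exact permutation test of its mean log2 CPM (two-sided, smallest possible p 0.00794) gave p = 0.0476.

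Igfbp5 was the only 1 of the 8 genes past the threshold between the pools, while 6.82% of all genes passed it, and 5.66% passed it as higher in Pool 2. All 8 had positive log2 fold changes, from 0.05 (Calb1) to 0.64 (C1ql2), with a median of 0.33 beside 0.02 over all genes. Without Pool 1 replicate 5, 5 of 8 were positive with a median of 0.18, and without Pool 2 replicate 2, 6 of 8 with a median of 0.20. C1ql2 had 113, 129, 154, 102 and 110.4 CPM (Pool 2) and 132, 47.9, 51.4, 92.8 and 65.5 CPM (Pool 1). It had 50.9, 83.1, 50.9, 141 and 163 CPM in Control mice and 92.9, 56.5, 77.3, 56.8 and 94.1 CPM in Vehicle mice. The C1ql2 libraries of Pool 2 were all above 4 of the 5 Pool 1 libraries, again with the exception of Pool 1 replicate 1. Its log2 fold change was 0.64 (SE 0.34, p = 0.0736 and adjusted p = 0.639 by edgeR), and the exact permutation test gave p = 0.0556.

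The difference between the pools depended on single mice. Without Pool 1 replicate 1, 5 of 8 genes were past the threshold (7.22% of all genes), namely Igfbp5 (log2 fold change 0.67), C1ql2 (0.92), Prox1 (0.76), Trpc6 (0.61) and Pdzd2 (0.58), with adjusted p-values of 0.328 to 0.556 by edgeR. In that fit, 4 of the 6 CA1 pyramidal markers were past it as lower in Pool 2, with a median log2 fold change of -0.60 over the 6. So were 1 of 4 CA2 and 1 of 7 interneuron markers. Without Pool 2 replicate 1, 0 of 8 were past it (4.72% of all genes), and Igfbp5 had a log2 fold change of 0.38 (SE 0.19, unadjusted p = 0.0587 and adjusted p = 0.903 by edgeR). With both Pool 2 replicate 1 and Vehicle replicate 4 left out, Igfbp5 had 0.38 (SE 0.16, unadjusted p = 0.0288 and adjusted p = 0.810 by edgeR) and was past the threshold, beside 4.95% of all genes. C1ql2 was past it together with Igfbp5 when the fit held only the groups compared (6.12% of all genes) and with the default spread estimate of edgeR (6.99%).

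Markers of other cells moved with Igfbp5 between the pools. Of the 6 microglial markers, 4 were past the threshold as higher in Pool 2 mice, against 5.66% of all genes, and the summed level was 324 to 816 CPM in Pool 2 and 334 to 380 CPM in Pool 1 mice. Of the 5 astrocyte markers, 2 were higher, Gfap (log2 fold change 0.98, SE 0.22) and Aqp4 (0.49, SE 0.13), with summed levels of 3571 to 6054 CPM in Pool 2 and 3444 to 4501 CPM in Pool 1. Of the 6 thalamic markers, 5 were higher, with 137 to 550.2 CPM in Pool 2 and 122 to 149 CPM in Pool 1. The highest library for microglia and astrocytes was Pool 2 replicate 1, which also had the highest Igfbp5 level, whereas for thalamus it was Pool 2 replicate 4, at 238 CPM of Igfbp5. Of the 5 leptomeningeal markers, Col1a1 (log2 fold change 0.89, SE 0.32) and Igf2 (mean 1.15 CPM in Pool 2 and 0.499 CPM in Pool 1) were higher, with summed levels of 29.2 to 97.7 CPM in Pool 2 and 19.3 to 59.6 CPM in Pool 1, and of the 3 endothelial markers, Pecam1 (0.34, SE 0.16) was. Without Pool 2 replicate 1, with 3.67% of all genes higher, the counts were 0 of 6 for microglia, 2 of 5 for astrocytes, 6 of 6 for thalamus, 4 of 5 for leptomeninges and 0 of 3 for endothelium. Without Pool 2 replicate 4, with 5.63% of all genes higher, they were 5, 2, 2, 2 and 0 in the same order. Over 20 libraries, Igfbp5 had r of 0.69 with the mean of the astrocyte markers, 0.54 with that of microglia and 0.39 with that of thalamus. Its r was 0.63 with the mean of the further granule cell genes and 0.72, the highest of the lists, with that of the mossy cell markers. With the group means removed, r was 0.57 for astrocytes, 0.38 for microglia and 0.050 for thalamus. It was then 0.62 for the further granule cell genes and 0.66 for the mossy cell markers. None of these markers was at 0 in any library. Igfbp5 is expressed by other cells of the brain as well, and the part of those cells in its difference was not tested.

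With all libraries, none of the 13 further granule cell genes was past the threshold in any of the 4 comparisons. Their median log2 fold changes were -0.15 in Pool 1 against Control, 0.00 in Pool 2 against Control, 0.12 in Control against Vehicle and 0.20 in Pool 2 against Pool 1, in which all 13 were positive. Without Pool 1 replicate 1, some of the 13, among them Plk5 and Maml2, were past the threshold in Pool 2 against Pool 1, beside 7.22% of all genes, and the median of the 13 was 0.45. None of the 3 genes of mature granule cells was past it either. Of the 6 genes of immature granule cells, 3 were past the threshold as higher in Pool 2 compared with Pool 1 mice, against 5.66% of all genes, with adjusted p-values of 0.442 to 0.572 by edgeR. The count was also 3 without Pool 2 replicate 1 and 2 without Pool 2 replicate 4. Igfbpl1, a gene of newborn granule cells, had 4.48 ± 2.20 CPM in Pool 2 and 2.15 ± 1.26 CPM in Pool 1 mice (SD, n = 5, log2 fold change 1.05, SE 0.41, adjusted p from edgeR 0.459). Calretinin (Calb2), which immature granule cells, mossy cells and interneurons express, had 20.4 ± 6.15 and 10.9 ± 4.96 CPM (0.89, SE 0.41, adjusted p from edgeR 0.572), and the dopamine receptor gene Drd1 had 5.95 ± 1.36 and 3.63 ± 1.18 CPM (0.71, SE 0.27, adjusted p from edgeR 0.442). Igfbpl1 was also the single immature gene past the threshold as lower in Pool 1 compared with Control mice, where it had 4.22 ± 1.92 CPM (log2 fold change -0.96, SE 0.41, adjusted p from edgeR 0.917), against 1.99% of all genes. Dcx and Sox11, the more widely used markers of young neurons, and Neurod1 were not past the threshold in any comparison.

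Over the 4 groups at once, 0 of 8 granule cell genes differed at an unadjusted p-value under 0.05, whereas 7.86% of all genes did. Igfbp5 did so with the replicate number as a block (6.16% of all genes), without Vehicle replicate 4 (6.76%) and without Pool 1 replicate 1 (7.68%). The edgeR p-values adjusted over all genes were lowest for Igfbp5 (adjusted p = 0.700, unadjusted 0.0853) and C1ql2 (adjusted p = 0.779, unadjusted 0.174). No gene of the 25190 had an adjusted p-value under 0.05 in any comparison in edgeR with all libraries and groups in 1 fit, TMM scaling, the robust spread estimate, no filter and no block, with 1314 to 2146 genes at an unadjusted p-value under 0.05. Other edgeR settings gave 0 to 3 genes with an adjusted p-value under 0.05 and DESeq2 gave 0 to 161, with none of the 8 among them. Exact permutation tests of the 8 genes in the 4 comparisons, 32 tests in all, gave 1 p-value under 0.05, that of Igfbp5 between the pools. In 0 of the 32 did the groups not overlap, whereas over all genes the share whose groups did not overlap was 0.861% in Pool 1 against Control, 1.05% in Pool 2 against Control, 0.607% in Control against Vehicle and 1.41% in Pool 2 against Pool 1.

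The group differences of the granule cell mean were also taken relative to the CA1 markers, with no test. The mean log2 CPM of the 8 genes was 0.40 higher in Pool 2 than in Pool 1 mice, and 0.80 higher when the mean of the CA1 markers was subtracted in each library. Without Pool 1 replicate 1 these were 0.62 and 1.26. In Pool 1 against Control mice the difference was -0.21 and -0.45, in Pool 2 against Control mice 0.19 and 0.35, and in Control against Vehicle mice 0.06 and 0.01. The pooled SD within groups was 0.44 before and 0.78 after subtraction, and the subtracted values ran from -1.62 to 1.00 in Pool 1 and from -0.63 to 0.88 in Pool 2. Other omissions are not given for these means, but single mice also made the fitted differences smaller. The median fitted log2 fold change of the 8 genes between the pools was 0.18 without Pool 1 replicate 5. It was -0.068 in Pool 1 against Control without Control replicate 4, and -0.081 in Pool 2 against Control without Control replicate 1.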

How the data were processed

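Bulk RNA-seq of 20 mouse hippocampi was analysed, 5 libraries per group. The authors prepared stranded poly(A)-selected libraries, checked the 50 nt single-end reads with FastQC 0.11.5, aligned them to GRCm38 (mm10) and counted them per gene of GENCODE release M20 with STAR, and deposited raw counts of 25190 genes without normalization, leaving out genes with a summed count below 10. Members are the rows with the 8 symbols. Members and lists were chosen with earlier results of these data known.

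Counts of all genes were TMM-normalized and tested in 1 edgeR 4.0.16 quasi-likelihood fit of the 4 groups (robust, limma 3.58.1, R 4.3.3) with Benjamini-Hochberg adjustment. A gene was called changed at p under 0.05 and a log2 fold change of 0.3 or more in either direction. Log2 CPM used a prior count of 2. Exon lengths are from GENCODE M21, which gives all 8 genes the same positions as the deposited table. Named genes are the 8 members, further or maturity genes past the threshold, the 10 genes most like the members' mean and the 5 most like Prox1 among genes of at least 1 CPM. The single list genes given by their r, and the markers of other cells that moved with Igfbp5, were named after their values were seen. Libraries of a group carry separate sample labels and were taken as separate mice, p-values measure the spread between these samples, and the 40 pairs of libraries within groups differed in their counts, with chi-square statistics of 6.01 to 46.4 per degree of freedom. The fit was tested on simulated counts. Alternatives were DESeq2 1.42.0, edgeR with the size factors of DESeq2, 2 filters on low counts (filterByExpr, or normalized counts averaging 10 or more), only the groups compared, a replicate block, the default spread estimate, 18 libraries (without Vehicle replicate 4 and Pool 2 replicate 1) and leaving out each library. No donor information, behaviour, histology or sRNA sequencing was used here. The values of 1 of the further granule cell genes are not reported here on their own.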

Additional observations from a re-analysis of the deposited data

Results flagged for a closer look

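A library stood apart from the other 4 of its group, by the gap to its nearest neighbour relative to the range of the group (above Dixon's 95% critical value for 5 samples), in 5 of 32 groups of values, where chance gives about 1 in 20. The 5 are not independent, as they come from 2 mice and 3 genes. Pool 2 replicate 2 had 186 CPM of Prox1, where the others of Pool 2 had 107 to 128. It had 115 CPM of Dsp (others 49.3 to 63.4) and 86.9 CPM of Pdzd2 (others 37.8 to 50.6). Pool 1 replicate 1 had 146 CPM of Dsp (others 25.7 to 48.5) and 97.1 CPM of Pdzd2 (others 27.0 to 40.5). Neither library stood apart by this measure for C1ql2, Trpc6, Stxbp6, Calb1 or Igfbp5.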

How the results depend on the processing

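Of the 8 alternatives other than leaving out single libraries, 1 turned the direction of a granule cell gene, Pdzd2 in Control against Vehicle (0.055 under the replicate block, -0.041 in the main analysis). In Pool 2 against Pool 1, 2 genes were past the threshold with only the groups compared (6.12% of all genes) and with the default spread estimate (6.99%), Igfbp5 and C1ql2. Among all 4 groups, 1 gene, Igfbp5, had an unadjusted p under 0.05 with the replicate block (6.16% of all genes). Deviations of same-numbered libraries had a median r of 0.02 over 30 pairs, and those of other numbers -0.01 over 120 pairs. An r above 0.1 was found in 12 of the 30 and in 31 of the 120. These values cannot decide whether some replicate numbers pair the samples, so the paired fit rests on a shared number only. The cause of these changes was not tested.

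Leaving out 1 library at a time, the number of genes past the threshold was 0 to 1 in Pool 2 against Control, in Control against Vehicle and among all 4 groups, and 0 to 5 in Pool 2 against Pool 1. The added gene was Igfbp5 without Control replicate 4, Calb1 without Vehicle replicate 5 and, among all 4 groups, Igfbp5 without Vehicle replicate 4 or Pool 1 replicate 1. The median log2 fold change was -0.55 to -0.068 in Pool 1 against Control, 0.18 to 0.64 in Pool 2 against Pool 1, -0.081 to 0.32 in Pool 2 against Control and -0.088 to 0.32 in Control against Vehicle. In Pool 1 against Control, Dsp had -0.63 to 0.33 and Pdzd2 -0.49 to 0.089. In Pool 2 against Control, Prox1 had -0.10 to 0.31, Dsp -0.16 to 0.47, Trpc6 -0.11 to 0.25, Stxbp6 -0.13 to 0.33 and Pdzd2 -0.17 to 0.19. In Control against Vehicle, Prox1 had -0.056 to 0.36, Dsp -0.22 to 0.31, Trpc6 -0.034 to 0.33, Stxbp6 -0.12 to 0.35, Pdzd2 -0.16 to 0.14 and Igfbp5 -0.25 to 0.00392. In Pool 2 against Pool 1, Dsp had -0.13 to 0.75, Pdzd2 -0.11 to 0.58 and Calb1 -0.042 to 0.17. The sign was the other one in 10, 14, 11 and 6 of 160 values, in the order of these comparisons. The 160 values include omissions of libraries outside the groups compared, which changed the values little. These shares therefore understate how often leaving out a mouse of the compared groups turned a sign. Depth was no limit for the 8 genes, whose precision is set by 5 mice per group.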
